A study of Homo sapiens with 20 samples.

Results

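The interleukin receptor genes were taken as all mRNAs (genes of the GENCODE type protein_coding) with a symbol made of IL, a number, the letter R and any further letters or digits. The rule, which used no measured value, found 42 genes among 19563 mRNAs with a quantified transcript, or among 34439 genes when lncRNAs were included. It also took in secreted antagonists such as IL1RN and left out receptor chains with other names, which are described separately. RNA-seq had been made from poly(A) RNA of NGP, a human neuroblastoma cell line with MYCN among its abundant transcripts. One group of 10 samples was treated with nutlin-3, applied as a racemic mixture at 8 µM, and the other group of 10 samples received ethanol, the vehicle. Nutlin-3 blocks the binding of MDM2 to p53. All samples were replicates of 1 cell line grown in culture, so the spread among them is that of cultures and not of patients.

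Interleukin receptors are chains on the cell surface that pair when a secreted interleukin binds. Type I and type II cytokine receptors pass the signal to JAK kinases and STAT transcription factors. Receptors of the IL-1 family signal through a TIR domain and MYD88, and those of the IL-17 family through the adaptor TRAF3IP2, also called Act1. Most of these chains are best known from leukocytes, whereas IL22RA1 is known from epithelial cells, where it pairs with IL10RB to bind IL-22 and with IL20RB to bind IL-20 and IL-24.

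Levels were low. Counts below are reads summed over all transcripts of a gene and rounded, and CPM are those counts scaled to a common library size after TMM normalization for library composition. The mean over the 20 samples was under 1 CPM for 29 of the 42 genes and at least 1 CPM for 13. Levels per length are given in TPM, which scales counts by transcript length as well as library size. Their median was 0.149 TPM in vehicle and 0.421 TPM in nutlin samples, against 3.72 and 4.05 TPM over all mRNAs. Summed over the 42 genes, the level was 69.95 ± 5.10 TPM (SD, n = 10) in vehicle and 112.2 ± 13.1 TPM (n = 10) in nutlin samples. Most of this difference lay in IL11RA, IL3RA and IL22RA1, whose levels are given below. Between 25 and 31 of the genes had a count in a vehicle sample, and between 31 and 36 in a nutlin sample.

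In the comparison of nutlin with vehicle, 20 interleukin receptor genes were significantly higher and 1 was lower after nutlin, out of 35 tested. Genes with at least 1 count in total in each condition were tested with the edgeR quasi-likelihood test, and a gene was called SDE (significantly differentially expressed) at 5% FDR after Benjamini-Hochberg adjustment over all 27697 genes tested. The members higher made up 57.1% of those tested, and the member lower 2.86%. Of all genes tested, 32.3% were higher and 26.5% lower, and of the 17351 mRNAs tested, 32.4% were higher and 38.5% lower. Among mRNAs with a mean under 1 CPM, 35.4% were higher and 4.59% lower, and of the 22 members tested in that range 13 were higher and none was lower by this test. The median log2 fold change (LFC, nutlin minus vehicle) was 0.93 over the members, -0.01 over all mRNAs and 0.67 over mRNAs under 1 CPM. IL17RD was the only member lower, also by DESeq2 and by limma voom. In the range under 1 CPM and in each receptor class below said to have none lower, no member was lower at an unadjusted p under 0.05 either. The other 7 members had no count in vehicle samples and were not tested. With a filter of at least 1 count over all samples instead, 40 members were tested and 24 were higher, some of these 7 among them. Their calls there rest on few nutlin counts. In that setting 17126 of 30937 genes were called in either direction. Every nutlin sample lay above every vehicle sample for 6 members and below for 1, against 14.5% and 25.6% of mRNAs.

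**Figure D1:**
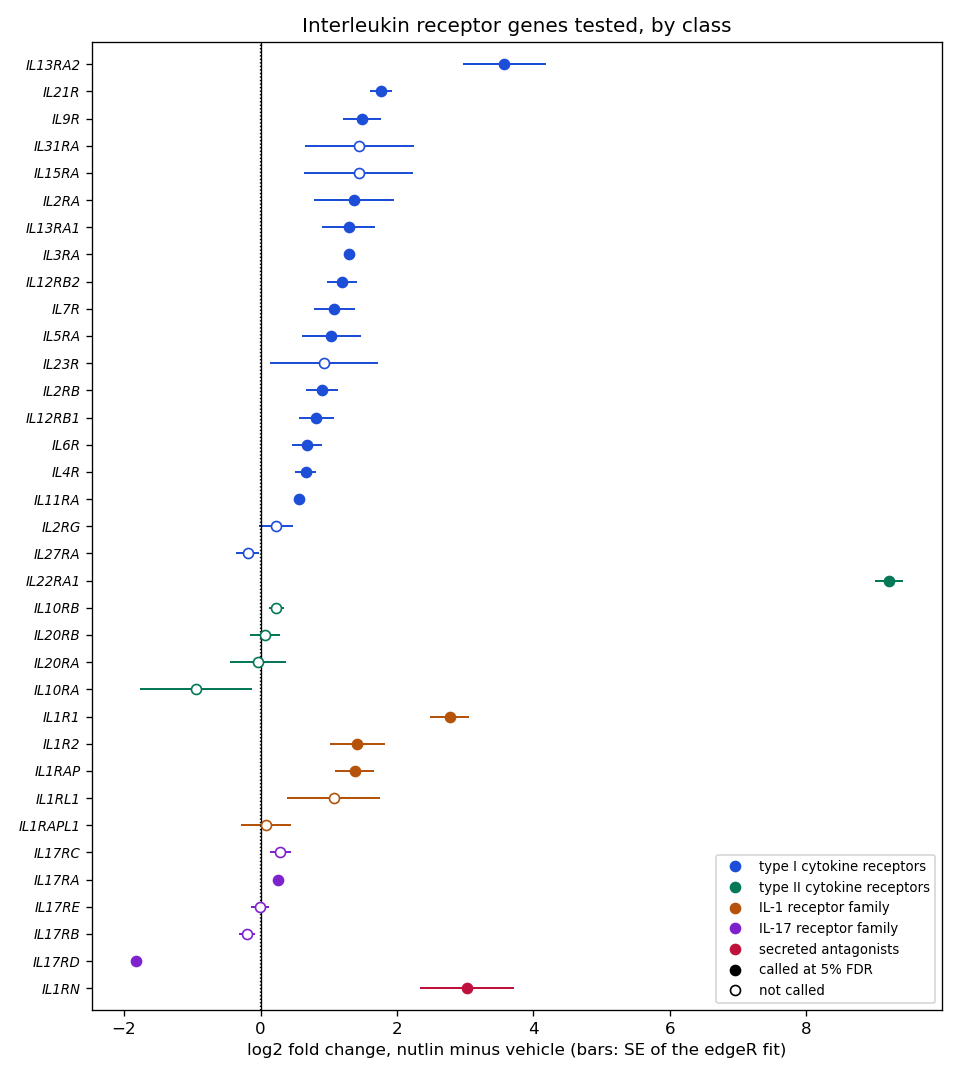
LFC with its SE from the edgeR fit for the 35 interleukin receptor genes tested, by class, with filled points for genes called at 5% FDR. The dotted line is the median of all mRNAs tested. IL22RA1 stands apart at 9.21, and IL17RD, at -1.83, is the only gene called on the left side.

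Bases upstream of the start of transcription are shown for 3 genes. IL22RA1 had the largest LFC of the members tested, IL3RA rose and holds matches to a motif, and IL17RD fell. The sequences are those of RefSeq on GRCh38.p14, read 5′ to 3′ on the strand of the gene and cut so that no base of an annotated exon is included. The IL3RA stretch lies before the earliest annotated start and stops 169 bases short of its canonical transcript, so the matches shown are not next to that start. The IL17RD stretch stops 22 bases short of its main transcript and lies within an intron of transcripts from an upstream start. They lie at chr1:24143141-24143390 (minus strand) for IL22RA1, chrX:1336535-1336615 (plus strand) for IL3RA and chr3:57165376-57165603 (minus strand) for IL17RD. Capitals mark matches to the STAT motif GAS, spelled TTCNNNGAA, and would also mark the p53 half-site (its consensus decamer).
IL22RA1: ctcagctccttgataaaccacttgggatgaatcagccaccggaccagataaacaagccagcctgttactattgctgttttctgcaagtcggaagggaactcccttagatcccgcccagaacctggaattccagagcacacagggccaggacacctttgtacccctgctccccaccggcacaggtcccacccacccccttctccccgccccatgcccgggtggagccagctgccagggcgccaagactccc
IL3RA: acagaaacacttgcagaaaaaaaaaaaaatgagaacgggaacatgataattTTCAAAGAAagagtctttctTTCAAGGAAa
IL17RD: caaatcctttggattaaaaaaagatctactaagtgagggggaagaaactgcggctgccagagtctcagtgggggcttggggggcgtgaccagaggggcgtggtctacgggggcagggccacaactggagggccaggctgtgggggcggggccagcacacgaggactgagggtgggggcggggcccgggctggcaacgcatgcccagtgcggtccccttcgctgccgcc

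The IL3RA stretch held 2 GAS matches, and the other stretches held no match to either motif. A further GAS match of IL3RA, outside the stretch shown, began 12 bases after its canonical start. Both motifs read the same on either strand, so 1 scan covered both, and they do not overlap in these stretches. In 35116 RefSeq windows from 250 bases before to 50 bases after a start, the GAS motif was present in 7.66% and the p53 half-site in 6.63%. Of the 60 windows of the members, which covered 37 of the 42 genes and counted the X and Y copies of pseudoautosomal genes separately, each motif was present in 5 windows, or 8.33%. The p53 half-site was found at 5 members, of which IL1R1, IL5RA and IL7R were higher after nutlin, and IL10RA and IL10RB were not called. For IL1R1 it lay in the window of a start upstream of that of IL1R1-205, the transcript with most of its counts.

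IL22RA1, the signal-transducing chain for IL-22, went from near 0 to a level among the highest of the family. In vehicle samples its counts were at lowest 0, at median 0 and at highest 1, and in nutlin samples 177, 261 and 307. The groups did not overlap, and 3 vehicle samples together held 3 counts, against 2576 in the nutlin samples. Scaled for library size, the ratio of these totals was 837, with an exact 95% interval of 286 to 4060 that covers counting error only. The fitted LFC was 9.21 ± 0.21 (SE; edgeR adjusted p = 2.87e-25), a value that depends on the prior count because the vehicle level is so low. Here and below, the SE of an LFC is its absolute value over the square root of the F statistic. For IL22RA1 this SE is far narrower than the exact interval and does not show the counting error of 3 vehicle counts. Per length, the level was 0.00834 ± 0.0135 TPM in vehicle and 6.42 ± 1.01 TPM in nutlin samples (SD, n = 10 each), behind only IL11RA and IL3RA among the members after nutlin. IL22RA1 has 1 quantified transcript and lies on the minus strand at chr1:24119771-24143140.

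The partner chains of IL22RA1 did not pass the test. IL10RB, shared by the receptors for IL-22, IL-10 and the interferon lambdas, had a lowest, median and highest level of 2.98, 4.31 and 4.95 CPM in vehicle and 4.03, 4.79 and 6.70 CPM in nutlin samples. The groups overlapped, and its LFC was 0.23 ± 0.11 (edgeR adjusted p = 0.0678). IL10RB was called higher in 7 of the alternative settings, with LFC up to 0.33. IL20RB had 142 counts in all vehicle and 152 in all nutlin samples (LFC 0.06 ± 0.22, edgeR adjusted p = 0.837). It overlaps the more abundant gene NCK1, at a mean of 13.2 CPM, on its own strand. IL20RA, the other signalling chain of the IL-20 receptor, had 24 counts in each group. IL10RA had 3 and 1 counts. IL22RA2, a secreted receptor that binds IL-22, was listed at 0 in every vehicle sample and had 6 counts in nutlin samples. Set against a floor of 3 counts for the vehicle group this is 1.95-fold, which leaves out the counting error of the 6 counts. The gene was not tested. Of the type II cytokine receptors, 1 of 5 tested was higher and none lower by this test. The mean was under 1 CPM for 4 of the 6 genes, and of mRNAs in that range 35.4% were higher and 4.59% lower.

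The genes next to IL22RA1 on chromosome 1 are MYOM3, a sarcomere protein gene at a distance of 7636 bases, and IFNLR1, the receptor chain for interferon lambda at 11028 bases. MYOM3 rose with an LFC of 0.93 (edgeR adjusted p = 9.31e-05), and IFNLR1 had an LFC of -0.05 (edgeR adjusted p = 0.971). Around the 20 members that rose, the nearest tested mRNAs on either side were 36 genes that are not members, and 9 of them were higher, 11 lower and 16 not called. The share higher was 25.0%, beside 32.4% of all mRNAs.

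Of 19 type I cytokine receptors, all tested, 14 were higher (73.7%) and none lower by this test, with a median LFC of 1.08. The mean was under 1 CPM for 13 of the 19. Of all mRNAs tested in that range, 35.4% were higher and 4.59% lower, with a median LFC of 0.67. IL11RA, the binding chain for IL-11 and the most abundant member per length, had a lowest, median and highest level of 31.0, 35.1 and 42.1 CPM in vehicle and 42.8, 52.0 and 70.3 CPM in nutlin samples. Every nutlin sample lay above every vehicle sample, although the highest vehicle and the lowest nutlin sample were close. Its LFC was 0.57 ± 0.06 (edgeR adjusted p = 5.36e-09), and it overlaps CCL27 on the opposite strand and a readthrough gene on its own strand, each with a mean under 1 CPM.

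IL3RA encodes the binding chain for IL-3 and lies in the pseudoautosomal region at chrX:1336616-1382689. Its levels were 6.88, 8.25 and 10.3 CPM at lowest, median and highest in vehicle and 18.2, 19.9 and 25.8 CPM in nutlin samples, with no overlap. The LFC was 1.29 ± 0.07 (edgeR adjusted p = 4.6e-16). Both flanking mRNAs rose as well: CSF2RA, the binding chain for GM-CSF, with an LFC of 1.12 (edgeR adjusted p = 0.00035) and SLC25A6, a mitochondrial ADP/ATP carrier, with 0.71 (edgeR adjusted p = 4.24e-16).

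IL21R, which binds IL-21, was lower in level but clearly separated. It had 7, 10.5 and 15 counts at lowest, median and highest in vehicle and 28, 35.5 and 55 counts in nutlin samples. No vehicle sample reached the lowest nutlin sample, and the LFC was 1.77 ± 0.16 (edgeR adjusted p = 5.75e-11). An antisense lncRNA, IL21R-AS1, overlaps it at a mean of 0.579 CPM, and the counting is not stated to use strand.

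The receptor chains for IL-12 rose together. IL12RB2, the signalling chain, had 3, 12 and 18 counts in vehicle and 19, 26.5 and 38 counts in nutlin samples, just without overlap (LFC 1.2 ± 0.22, edgeR adjusted p = 2.57e-05). IL12RB1, which also serves the IL-23 receptor, had 1, 6 and 12 counts in vehicle and 7, 12.5 and 16 in nutlin samples. These ranges overlapped, with an LFC of 0.82 ± 0.26 (edgeR adjusted p = 0.00771), and IL12RB1 overlaps the more abundant gene MAST3 on the opposite strand. IL23R, the chain specific to IL-23, had 3 counts in all vehicle and 7 in all nutlin samples and was not called.

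Several chains that pair with the common gamma chain IL2RG were higher, while IL2RG itself was not called, and the difference between them was not tested. IL2RG had 6, 9 and 19 counts at lowest, median and highest in vehicle and 3, 12.5 and 18 in nutlin samples (LFC 0.23 ± 0.25, edgeR adjusted p = 0.444). IL4R, which binds IL-4 and pairs for IL-13, had 10, 15 and 20 counts in vehicle and 19, 23.5 and 35 in nutlin samples, overlapping only at the ends of the ranges (LFC 0.66 ± 0.16, edgeR adjusted p = 0.00071). IL2RB, the signalling chain for IL-2 and IL-15, had 4, 8.5 and 11 counts in vehicle and 8, 14 and 28 in nutlin samples.

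The IL2RB ranges overlapped, and its LFC was 0.90 ± 0.23 (edgeR adjusted p = 0.00151). IL9R, which binds IL-9, had 1, 6.5 and 11 counts in vehicle and 11, 17 and 30 counts in nutlin samples, so that the ranges met at 11. Its LFC was 1.49 ± 0.28 (edgeR adjusted p = 2.88e-05), but near-identical IL9R pseudogenes exist and reads could have been split among them, so the value is uncertain. Among lower members, IL7R (40 counts in all vehicle and 88 in all nutlin samples), the IL-7 receptor, rose with an LFC of 1.08. IL2RA, the high-affinity IL-2 chain, went from 8 to 23 counts in total, with an LFC of 1.37 ± 0.58 (edgeR adjusted p = 0.0434). That call was lost with DESeq2 (adjusted p = 0.0574), limma voom (adjusted p = 0.128) and the length offset (edgeR adjusted p = 0.0537). It was also lost with a replicate block, a term for the replicate number. IL15RA had 1 and 5 counts in total and was not called.

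The IL-13 receptor chains rose from very low counts. IL13RA2, a decoy receptor that binds IL-13, had 2 counts in all vehicle and 38 in all nutlin samples. The ratio of the totals, scaled for library size, was 18.5 with an exact 95% interval of 4.79 to 158 for counting error only, and edgeR gave an adjusted p of 7.87e-06. IL13RA1, the signalling chain, had 32 and 83 counts in total (LFC 1.29 ± 0.39, edgeR adjusted p = 0.00594). Ranges overlapped for both genes.

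IL6R and IL5RA were higher, with calls that were lost in other settings. IL6R, the binding chain for IL-6, had 5, 6.5 and 13 counts at lowest, median and highest in vehicle and 7, 13 and 18 in nutlin samples, with an LFC of 0.68 ± 0.22 (edgeR adjusted p = 0.00954). With an offset for the effective length of the expressed transcripts its LFC was 0.18 (edgeR adjusted p = 0.655). The IL6R call was also lost with the replicate block. An antisense lncRNA, IL6R-AS1, overlaps IL6R at a mean of 0.276 CPM. IL5RA, which binds IL-5, had 21 and 46 counts in total (LFC 1.04 ± 0.43, edgeR adjusted p = 0.0398). Its call was lost with limma voom (adjusted p = 0.0714) and with the replicate block. IL27RA, which binds IL-27, had a lowest, median and highest level of 0.876, 1.37 and 1.93 CPM in vehicle and 0.984, 1.13 and 1.64 CPM in nutlin samples. The groups overlapped, and its LFC was -0.19 ± 0.17 (edgeR adjusted p = 0.355). IL31RA had 1 and 5 counts and was not called.

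**Figure D2:**
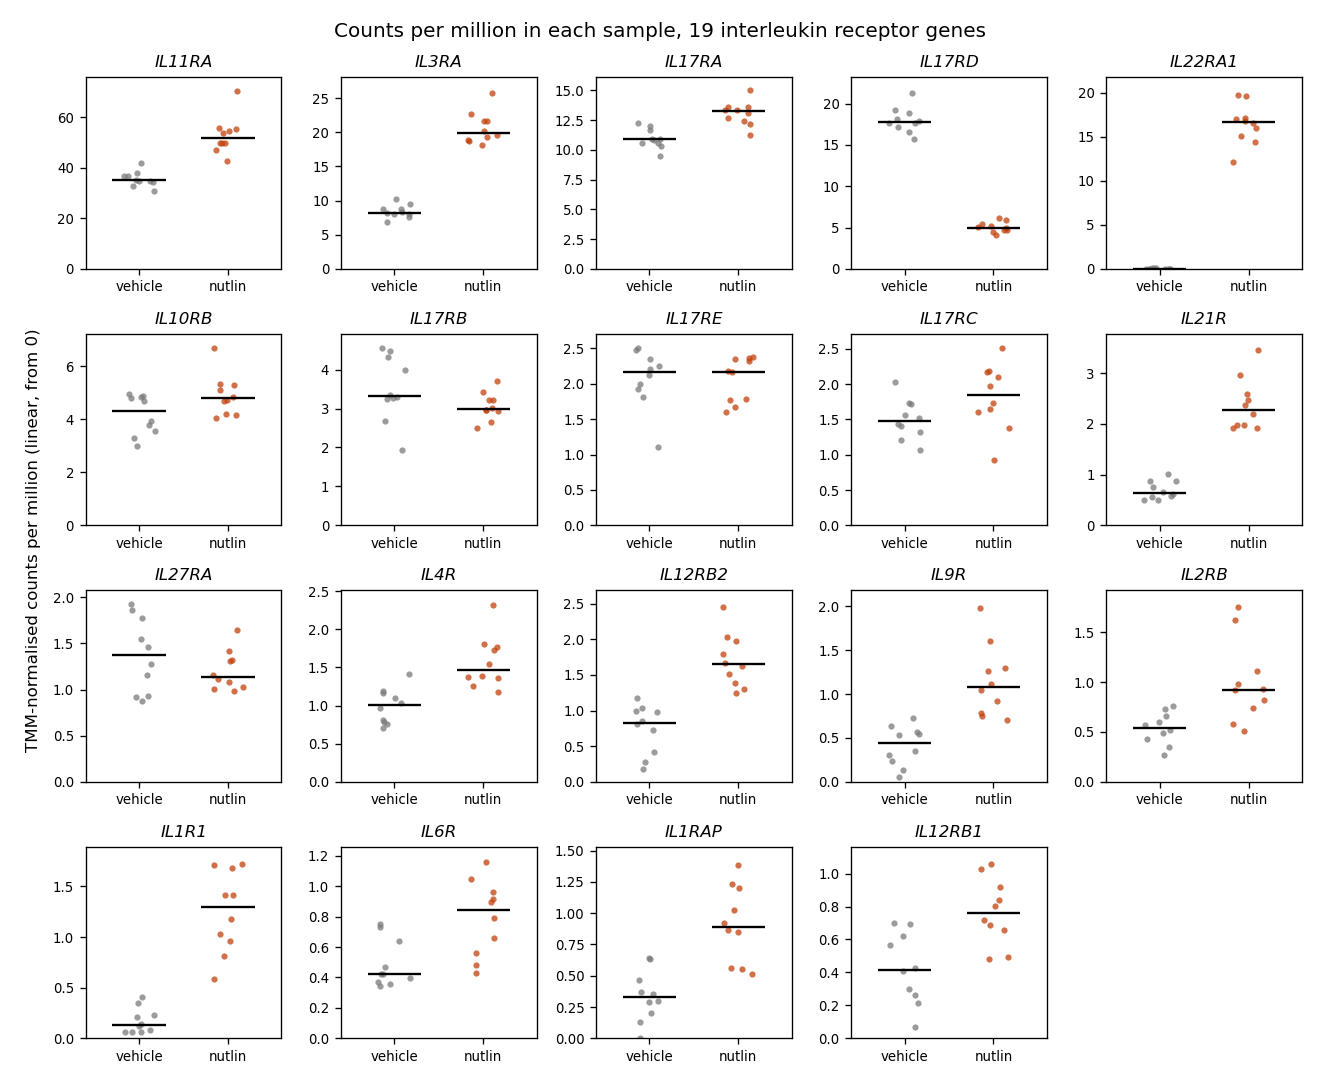
CPM after TMM normalization in each of the 10 vehicle and 10 nutlin samples, on linear axes from 0 that differ between panels, with the median as a black line, for the 14 members called at a mean of at least 0.5 CPM and the 5 members not called at a mean of at least 1 CPM. The groups are apart in 7 panels: IL11RA, IL3RA, IL17RD, IL22RA1, IL21R, IL12RB2 and IL1R1.

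In the IL-17 receptor family the direction was mixed, with 1 of 5 genes tested higher and 1 lower, beside 32.4% and 38.5% of all mRNAs tested. IL17RD, also known as Sef, an inhibitor of fibroblast growth factor signalling, had 194, 277 and 347 counts at lowest, median and highest in vehicle and 66, 76 and 95 counts in nutlin samples. All nutlin samples lay far below the vehicle samples. The LFC was -1.83 ± 0.07 (edgeR adjusted p = 6.19e-20), and its level per length went from 2.61 ± 0.346 to 0.972 ± 0.220 TPM (SD, n = 10 each). IL17RD lies on the minus strand at chr3:57089982-57170306.

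IL17RA, the chain common to most IL-17 receptors, rose little. Its lowest, median and highest levels were 9.51, 10.9 and 12.3 CPM in vehicle and 11.2, 13.2 and 15.1 CPM in nutlin samples. These overlapped, and the LFC was 0.25 ± 0.06 (edgeR adjusted p = 0.000346). IL17RC, which pairs with IL17RA, had 15, 23 and 28 counts in vehicle and 14, 30 and 40 in nutlin samples (LFC 0.29 ± 0.15, edgeR adjusted p = 0.112). It was called higher in 3 alternative settings, with an LFC of up to 0.44 and an edgeR adjusted p down to 0.0217.

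IL17RB, which binds IL-17B and IL-25, had 29, 52.5 and 78 counts at lowest, median and highest in vehicle and 40, 47.5 and 60 in nutlin samples (LFC -0.20 ± 0.12, edgeR adjusted p = 0.164). A lncRNA on the opposite strand overlaps it at a higher mean, 5.52 against 3.28 CPM. IL17RE, which binds IL-17C, had 16, 31 and 41 counts in vehicle and 26, 34 and 38 in nutlin samples (LFC -0.01 ± 0.13, edgeR adjusted p = 0.967). Its level per length was nevertheless 0.925 ± 0.237 TPM in vehicle and 1.48 ± 0.401 TPM in nutlin samples (SD, n = 10 each). With the offset for effective length the LFC of IL17RE was 0.66 (edgeR adjusted p = 0.00159). The last gene, IL17REL, had 2 counts, both in nutlin samples.

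In the IL-1 receptor family, 3 of 5 genes tested were higher and none lower by this test, all at a mean under 1 CPM. Of mRNAs in that range, 35.4% were higher and 4.59% lower. IL1R1, the signalling receptor for IL-1, had 1, 2 and 7 counts at lowest, median and highest in vehicle and 9, 20.5 and 28 counts in nutlin samples. The groups did not overlap, and the LFC was 2.77 ± 0.29 (edgeR adjusted p = 1.43e-09). IL1RAP, the accessory chain it needs, had 0, 5 and 11 counts in vehicle and 8, 14 and 21 in nutlin samples, with overlap (LFC 1.38 ± 0.29, edgeR adjusted p = 0.000169).

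The decoy receptor IL1R2 rose with them, from 24 to 68 counts in total (LFC 1.42 ± 0.40, edgeR adjusted p = 0.0032). IL1RN, the secreted antagonist of IL-1, went from 2 to 26 counts in total, a scaled ratio of 12.7 with an exact 95% interval of 3.17 to 110, and its edgeR adjusted p was 0.000374. The chains for IL-33, IL-18 and IL-36 stayed near 0. IL1RL1, the IL-33 receptor, had 5 counts in all vehicle and 12 in all nutlin samples (edgeR adjusted p = 0.187). IL18R1, IL18RAP and IL1RL2 were listed at 0 in every vehicle sample and had 1, 7 and 9 counts in all nutlin samples. IL1RAPL1, a synaptic member of the family, had 44 and 47 counts, and IL1RAPL2 and the antagonist IL36RN were listed at 0 in every sample.

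**Figure D3:**
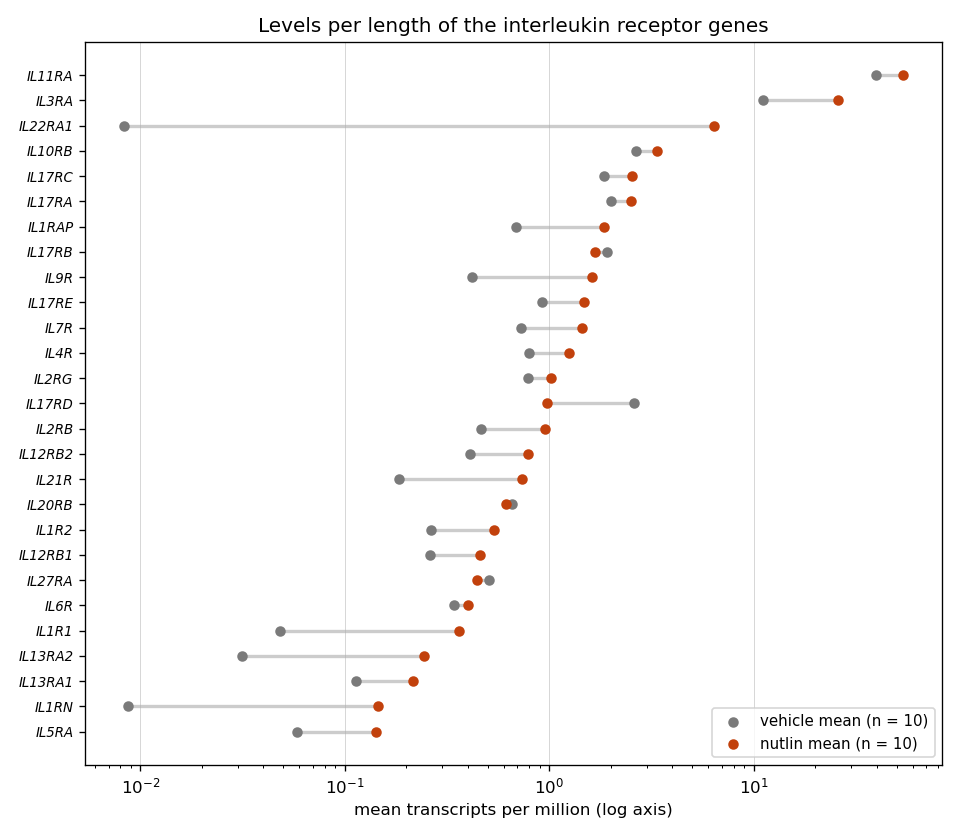
Mean TPM of the interleukin receptor genes with at least 0.1 TPM in either condition, on a log axis, with vehicle and nutlin means joined by a line. IL22RA1 moves from 0.00834 to 6.42 TPM, IL17RD moves down from 2.61 to 0.972 TPM, and IL11RA and IL3RA are highest in both conditions.

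Per length, 7 members reached 1 TPM in vehicle and 13 in nutlin samples. In vehicle the order was IL11RA (39.8 ± 4.08 TPM), IL3RA (11.2 ± 1.47 TPM), IL10RB (2.66 ± 0.713 TPM) and IL17RD (2.61 ± 0.346 TPM), of which the last pair did not differ beyond their spread. IL17RA, IL17RB and IL17RC followed, between 1.86 and 2.02 TPM, also within their spread. After nutlin the order was IL11RA (53.8 ± 9.49 TPM), IL3RA (25.8 ± 3.71 TPM), IL22RA1 (6.42 ± 1.01 TPM) and IL10RB (3.36 ± 0.760 TPM). IL17RD was no longer among the members above 1 TPM.

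At the level of transcripts, the 42 genes had 308 quantified transcripts, of which 121 had no count in any sample and 115 were tested. By the edgeR quasi-likelihood test over all transcripts, 15 of them in 10 genes were higher (13.0%) and 2 in 2 genes were lower (1.74%), against 12.7% and 10.7% of all transcripts tested. The fall of IL17RD was carried by IL17RD-201, the canonical transcript, from 272 ± 45.7 to 72.1 ± 9.999 counts (SD, n = 10 each), with an LFC of -1.93. IL17RD-202, from another start, was called higher, but nutlin replicate 7 held 15.4 of its counts, and without that sample, in a fit added after seeing the data, its LFC was 1.57 (edgeR adjusted p = 0.249). Both main IL3RA transcripts rose, IL3RA-201 with an LFC of 1.5 and IL3RA-203 with 1.18.

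For IL1R1 the rise was in IL1R1-205, which held 79.8% of its counts in vehicle and 90.3% in nutlin samples. Of the IL1RAP counts, 72.9% in vehicle and 64.1% in nutlin samples fell on IL1RAP-214, a transcript with no defined coding sequence. Of the IL2RG counts, 81.2% in vehicle and 94.9% in nutlin samples fell on IL2RG-206, a retained-intron transcript, and the canonical coding transcript IL2RG-202 was listed at 0 in every sample. In IL6R the canonical IL6R-202 rose with an LFC of 1.32 (edgeR adjusted p = 0.0136), from 48.3% to 73.8% of the counts. IL17RB-202, a retained-intron transcript, fell by 2.20 on the log2 scale (edgeR adjusted p = 0.0286), whereas IL17RB as a gene was not called. The split of reads among transcripts of 1 gene is kallisto's estimate, and its own error was not measured here.

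The ligands were mostly as low as the receptors. Of 42 interleukin ligand genes listed, 41 were matched and 28 tested, and IL17A was not analysed here. Of those tested, 13 were higher and 2 lower, with a median LFC of 1.19. The mean was under 1 CPM for 36 of the 41. Among mRNAs in that range 35.4% were higher and 4.59% lower, with a median LFC of 0.67. The other lists of the pathway, given below and mostly at 1 CPM or more, stand beside 32.4% of all mRNAs higher and 38.5% lower. IL33, an alarmin that binds IL1RL1, had the largest LFC among ligands at 1 CPM or more, 4.54 ± 0.22 (edgeR adjusted p = 1.58e-17), from a median of 0.225 to 5.51 CPM. IL16, a chemoattractant that binds CD4, rose with an LFC of 2.33 ± 0.18 (edgeR adjusted p = 1.41e-12). IL17D fell with an LFC of -0.65 ± 0.10 (edgeR adjusted p = 2.8e-06).

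The ligands of IL22RA1, named here after their values were seen, stayed near the floor. IL24 rose from 1 to 22 counts in total (LFC 3.34 ± 0.64, edgeR adjusted p = 4.23e-05). IL20 had 15 counts and IL22 had 3, all in nutlin samples.

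Receptor chains and soluble inhibitors with other names, 13 genes of which 12 were tested, showed 3 higher and 4 lower, with a median LFC of 0.08. IFNGR2, a chain of the interferon gamma receptor, fell with an LFC of -0.78 ± 0.05 (edgeR adjusted p = 3.94e-14). IFNAR2, a chain of the type I interferon receptor, fell with -0.48 ± 0.07 (edgeR adjusted p = 1.49e-06), and IL18BP, which binds and blocks IL-18, with -0.35 ± 0.06 (edgeR adjusted p = 4.63e-06). Of the genes that rose, IL6ST had an LFC of 0.35 ± 0.08 (edgeR adjusted p = 0.00029). CSF2RB, not tested, was listed at 0 in every vehicle sample and had 3 counts in all nutlin samples. IL6ST and CSF2RB were named after their values were seen.

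Of the 11 JAK and STAT genes, 5 were higher and 3 lower, with a median LFC of 0.26. STAT6, the factor used by IL-4 and IL-13 receptors, had a median of 0.677 CPM in vehicle and 4.48 CPM in nutlin samples (LFC 2.62 ± 0.15, edgeR adjusted p = 9.15e-16). STAT3, used by the receptors for IL-6, IL-11 and IL-22, went from a median of 84.8 to 203.9 CPM without overlap (LFC 1.25 ± 0.03, edgeR adjusted p = 3.61e-24). STAT5B, used by the IL-2 and IL-3 receptors, fell with an LFC of -0.58 ± 0.03 (edgeR adjusted p = 6.96e-16).

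All 8 SOCS genes, feedback inhibitors of JAK and STAT signalling, passed the test, 4 of them higher and 4 lower. Among those at 1 CPM or more, SOCS6 had an LFC of -0.59, CISH of -0.57 and SOCS5 of 0.44. The largest LFC of the list, named after the values were seen, were those of SOCS3 (2.93, mean 0.999 CPM) and SOCS1 (1.74, mean 0.663 CPM), both higher. Of 12 adaptors and kinases used by TIR and IL-17 receptors, 6 were higher and 3 lower, with a median LFC of 0.37. TRAF3IP2, the IL-17 receptor adaptor, rose with an LFC of 1.51 ± 0.09 (edgeR adjusted p = 5.02e-15), and the TAK1-binding proteins TAB2 and TAB3 rose with 1.25 ± 0.17 and 0.66 ± 0.06.

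**Figure D4:**
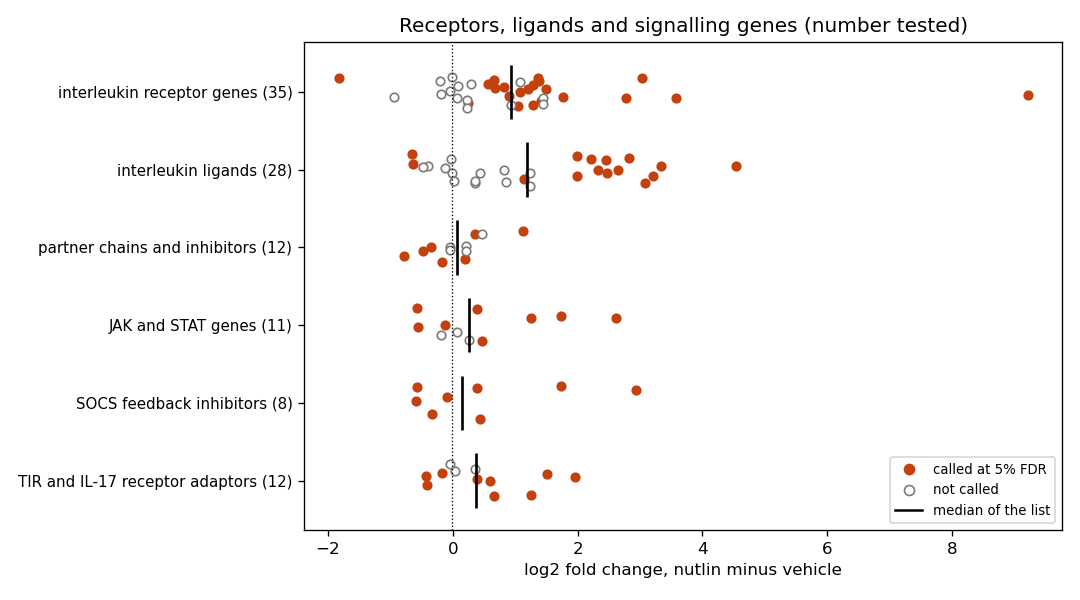
LFC of each gene tested among the interleukin receptor genes and 5 lists of the pathway, with filled points for genes called at 5% FDR, a black line at the median of each list and a dotted line at the median of all mRNAs tested. The receptor and ligand medians, 0.93 and 1.19, lie to the right of those of the signalling lists, but the lists differ in abundance. Of the receptor genes 29 of 42, and of the ligands 36 of 41, had a mean under 1 CPM. The median was 0.67 over all mRNAs in that range and 0.29 over the receptor genes at 1 CPM or more.

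Depth and cell identity bear on these values as follows. Read totals ran from 14455477 to 19532971 in vehicle and from 15078052 to 17442896 in nutlin samples, so the groups overlapped in depth. MDM2, a known target induced when p53 is released, had an LFC of 4.51 (edgeR adjusted p = 5.61e-29), and every nutlin sample lay above every vehicle sample. Of 10 neuroblastoma markers, all had a mean of at least 10 CPM, with 2 higher and 6 lower. Of all mRNAs tested, 32.4% were higher and 38.5% lower. Of 12 leukocyte markers, the T cell genes CD3D, CD3E and CD2 were listed at 0 in every sample, while 4 of 7 tested were higher, among them ITGAM with an LFC of 7.05, and the summed level was 1.42 to 3.05 TPM in vehicle and 6.06 to 10.5 TPM in nutlin samples. Of 8 endothelial and fibroblast markers, 2 were higher, COL1A1 among them with an LFC of 1.98, and 2 lower, and the summed level was 4.68 to 9.20 TPM in vehicle and 8.49 to 12.5 TPM in nutlin samples. The mean was under 1 CPM for 10 of the 12 leukocyte markers and 6 of the 8 endothelial and fibroblast markers. Of mRNAs tested in that range, 35.4% were higher and 4.59% lower. The part of these marker genes in the receptor results was not tested. In bulk RNA, fewer cells that express a gene cannot be told apart from less of its RNA per cell.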

How the data were processed

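RNA-seq (poly(A), paired-end) of NGP cells in 10 vehicle and 10 nutlin samples was used, which the study describes as biological replicates. Groups and replicate numbers came from the sample labels. The authors quantified reads with kallisto 0.42.4 on GRCh38 transcripts and deposited estimated counts per transcript with no normalization. The TPM values were also deposited by the authors, scaled by effective length and library size, and serve for levels only. The deposited effective lengths, in bases, were used in 1 alternative, as a mean per gene weighted by TPM.

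Transcripts were assigned to genes with GENCODE release 44, which is later than the release the authors used. Of 198968 transcripts, 191106 (96.05%) matched, carrying 95.71% to 96.78% of the counts of a sample. Estimated counts were summed per gene and rounded. A gene entered the fit if each condition held at least 1 count of it. The fit was made with edgeR 4.0.16 (TMM, quasi-likelihood F-test, condition as the only term) in R 4.3.3, with Benjamini-Hochberg adjustment over all genes tested and 5% FDR, and transcripts likewise. The script was tested on simulated data. Alternatives were DESeq2 1.42.0, its size factors, limma 3.58.1 (voom), other filters, a length offset, unmatched counts in the library sizes, 1% FDR and a replicate block. Intervals are exact at 95% and floors are 3 counts, for counting error only. The promoter motifs were scanned in RefSeq windows of GRCh38.p14. Python 3.11.15 was used with scipy 1.17.1 for intervals, pandas 2.3.3 for tables and matplotlib 3.10.9 for plots.

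The members and gene lists were chosen with earlier results of these data known. Values are given for members called at a mean of at least 0.5 CPM, for IL22RA1 and for members not called at 1 CPM or more, while the other members are given by their counts. From each list of the pathway, up to 3 genes with the largest absolute LFC were named among those called at 1 CPM or more. MDM2 served as the check of the treatment.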

Additional observations from a re-analysis of the deposited data

Results flagged for a closer look

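The 19 members described by sample and MDM2 were examined in each condition, 40 groups of 10 samples in all, and a highest or lowest sample stood apart from the rest by Dixon's 95% criterion in 3 of them. Chance alone gives about 1 such sample in 20 groups. IL11RA had 70.33 CPM in nutlin replicate 4, with the next sample at 55.71 CPM. IL10RB had 6.696 CPM in nutlin replicate 2, with the next at 5.328 CPM. IL17RE had 1.101 CPM in vehicle replicate 10, with the next at 1.81 CPM.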

How the results depend on the processing

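Of the 21 members called, 18 kept their call in every setting in which they could be fitted, and IL6R, IL5RA and IL2RA lost it in at least 1. The number of members higher was 20 by edgeR with TMM, and ranged from 17 to 24 with DESeq2, its size factors, voom, a length offset, unmatched counts in the library sizes, at least 1 count over all samples and a replicate block. It was 14 of 22 tested with at least 1 count in every sample, where IL22RA1 could not be fitted, and 12 of 18 tested with filterByExpr, which tests fewer genes. With filterByExpr on transcripts, 1 member transcript was lower in place of 2. One member was lower in each of these gene-level settings. Values near 0 changed sign. IL17RE was 0.04 with DESeq2 and with its size factors, 0.01 with voom, with 1 count over all samples and with unmatched counts, 0.07 with filterByExpr, 0.05 with 1 count in every sample and 0.66 with the length offset. IL20RB was -0.06 with the length offset. IL20RA was 0.00 with DESeq2 and its size factors, 0.04 with voom, 0.02 with 1 count in every sample, and 0.51 in the 16 samples with a shared replicate number, with the replicate block or without it. The cause was not tested. The LFC of IL22RA1 was between 8.48 and 9.59 in the settings that fitted it. With the replicate block, 17 members were higher, and 18 in the same 16 samples without it, a fit added after seeing the data. Replicate numbers were not taken as pairs, since the labels do not say that they pair samples. Each sample's deviations from its group mean in log2 CPM were also correlated, over genes at a mean of 1 CPM or more. For same-numbered vehicle and nutlin samples the correlation of deviations was between -0.1 and 0.1096, with a mean of -0.0172 against 0.0016 for other pairs. Members under 1 CPM rest on few reads, and for them a call that was missed is not evidence of no change.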
